A study of Drosophila melanogaster with 2 samples.

Results

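The translation initiation factor genes of Drosophila melanogaster were examined for binding by Ptx1, a paired-like homeodomain transcription factor. The genes were all protein-coding genes of the Ensembl annotation (release 115) whose symbol is eIF followed by a digit, and 44 of the 13968 coding genes on the chromosome arms met that rule. Chromatin immunoprecipitation and sequencing had been carried out on whole embryos aged 0 to 24 h from a transgenic strain carrying a Ptx1-eGFP insertion, in which Ptx1 is fused to enhanced green fluorescent protein. The labels describe precipitation through the GFP tag, although their antibody field reads Ptx1. There were 2 biological replicates in 1 group, so no contrast between conditions exists, and cell types of the embryo cannot be told apart. What drives the fusion was not examined, and no control sample was analysed here.

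Initiation brings the small ribosomal subunit, initiator tRNA and mRNA together. eIF1, eIF1A and eIF3 assemble on the small subunit with the eIF2 complex that carries initiator tRNA, and eIF2B recharges eIF2 with GTP. The eIF4 factors bind the mRNA cap, unwind the leader and bridge to the ribosome, while eIF5 and eIF5B act at start codon recognition and subunit joining. eIF6 keeps the large subunit from joining too early. These genes are widely expressed housekeeping genes, and several have paralogues in the fly with expression largely in testis.

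Peaks had been called by the authors and filtered by the irreproducible discovery rate (IDR), a measure of how well a peak's rank is repeated between replicates. Each peak has a summit, its point of highest signal, and a deposited strength score with no stated unit, which orders peaks within 1 list. It also has a scaled IDR value capped at 1000, and every peak in the conservative list had a scaled value of at least 830. The conservative list built from both replicates held 6840 peaks, 6824 of them on the arms, against 5480 in the thresholded list of replicate 1 and 4825 in that of replicate 2. Read depth is unknown. A gene was called bound where a summit lay within 1000 bp of any of its annotated transcription start sites, and offsets are from the nearest of these along the gene's own strand. Positions are 1-based on dm6.

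Ptx1 peaks lay at 11 of the 44 initiation factor genes in the conservative list, a share of 25% (exact Clopper-Pearson 95% interval 13.2 to 40.3), and at 26.7% of the other 13924 coding genes. The bound genes were eIF1, eIF1A, eIF2Bbeta, eIF2Bdelta, eIF2D, eIF3a, eIF3c, eIF3h, eIF3m, eIF5B and eIF6. Replicate 1 alone had summits at 10 of the 44 (22.7%), against 23.5% of other coding genes, and replicate 2 at 9 (20.5%), against 21.9%. Both replicate lists held 8 of them (18.2%, interval 8.19 to 32.7), against 19.5%. The second thresholded list of the series gave 12 (27.3%), against 28.0%. Each share lay close to that of other coding genes, whose value stood well inside the interval. These intervals cover the counting of genes alone.

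**Figure D1:**
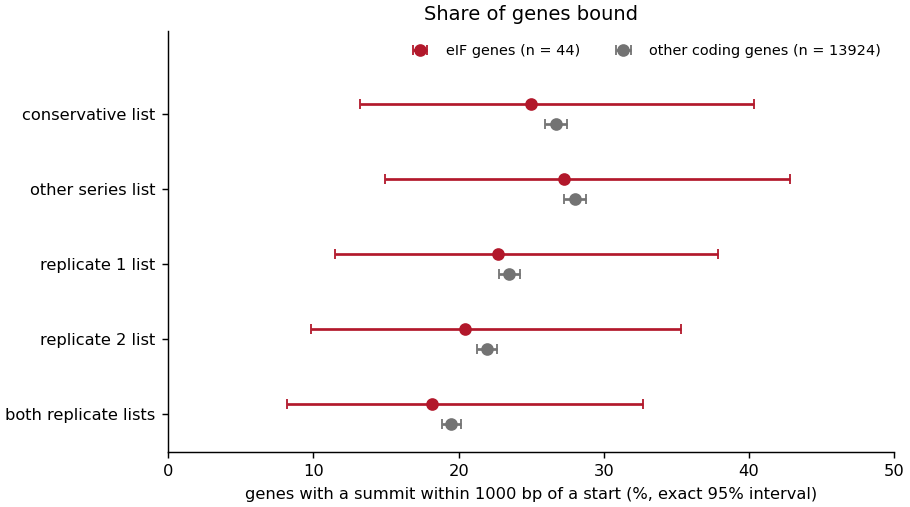
Share of genes with a summit within 1000 bp of a start (x axis, percent) in each peak list (y axis), for the 44 initiation factor genes and the 13924 other coding genes. Points are shares and bars exact 95% intervals; in every list the grey point lies within the red bar.

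By factor group, both small-subunit factors of start codon selection, eIF1 and eIF1A, were bound, as were 2 of the 5 eIF2B subunits, 4 of the 16 eIF3 genes, eIF2D, eIF5B and eIF6. None of the 3 eIF2 subunit genes was bound in the conservative list, and none of the 13 genes of the eIF4 group. The 17 genes with a paralogue by symbol, 5 pairs in eIF3, eIF4G and eIF4H and the 7 genes of the eIF4E family, also had 0 bound, so all 11 bound genes were among the other 27. These counts stand beside 26.7% of other coding genes, the groups are small, and no difference between them was tested. The second thresholded list gave other counts, since it lacked eIF1A and eIF3a and held eIF2A and the paralogue genes eIF3d1 and eIF4G2.

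eIF1 promotes scanning and guards start codon choice. Its highest summit, at position 3223047 on chr3L, lay 294 bp upstream of its start and 87 bp upstream of the start of RpL28, a ribosomal protein gene of the large subunit that is transcribed the other way. The peak scored 314 and ranked 1069 in the conservative list, with 179 in replicate 1 and 131 in replicate 2. A weaker summit with a score of 115 and rank 3844 lay 94 bp upstream of eIF1, and neither replicate list held it. eIF1 (FBgn0035423) spans chr3L:3223341-3224650 on the plus strand. The promoter element TATCGATA, the core of the DNA replication-related element (DRE), stood at the stronger summit. The stretch reaching 50 bases either side of it, chr3L:3222997-3223097 on the plus strand, was read from the RefSeq genome of the same assembly, as were all others below. It is shown because the element (capitals) falls at the summit itself.
eIF1: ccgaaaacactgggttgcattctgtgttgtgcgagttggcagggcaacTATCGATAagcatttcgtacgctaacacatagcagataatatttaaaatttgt

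eIF1A, the partner of eIF1 on the small subunit, had one of the weakest bound peaks. It scored 92.9 and ranked 4768, and its summit lay 134 bp upstream of eIF1A and 85 bp upstream of the divergent gene Vps39. Neither replicate list held it, with ranked scores of 46.4 in replicate 1 and 37.2 in replicate 2 and scaled IDR values of 68 and 636, below the threshold. eIF1A (FBgn0026250) spans chr3R:18274665-18283005 on the plus strand. The stretch from just beyond the start of Vps39 to just beyond that of eIF1A, chr3R:18274391-18274671 on the plus strand, is shown for comparison with eIF3a below, with TATCGATA and TATAAA in capitals.
eIF1A: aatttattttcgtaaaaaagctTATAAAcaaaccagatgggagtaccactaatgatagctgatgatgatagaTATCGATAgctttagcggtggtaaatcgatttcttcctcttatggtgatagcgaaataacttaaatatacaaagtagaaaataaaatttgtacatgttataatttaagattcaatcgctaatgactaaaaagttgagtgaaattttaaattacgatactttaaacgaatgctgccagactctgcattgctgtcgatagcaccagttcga

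Among the genes of eIF2, which binds initiator tRNA, eIF2gamma alone had a thresholded peak, and it was in replicate 2 alone. eIF2gamma (FBgn0263740), at chr3R:15257844-15263458 on the minus strand, encodes the GTP-binding subunit. That peak scored 46.0 with a summit 58 bp upstream, and no ranked peak of replicate 1 or of the replicate pair was there. eIF2alpha, the subunit whose phosphorylation lowers initiation, had no ranked peak in any list. eIF2beta had a ranked peak of the replicate pair with a score of 10.5.

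The highest peak of the conservative list lay beside eIF2Bbeta, a regulatory subunit of the exchange factor eIF2B. It scored 3662 and was also the highest in each replicate, with 2110 in replicate 1 and 1566 in replicate 2. Its summit at position 2703891 on chrX, in a peak spanning chrX:2703686-2704076, lay 680 bp upstream of eIF2Bbeta. It was far closer to Ugalt, which encodes a UDP-galactose transporter and is read the other way, at 39 bp upstream of that start. Which gene the site serves was not tested. eIF2Bbeta (FBgn0024996) spans chrX:2704571-2706217 on the plus strand. The stretch reaching 50 bases either side of the summit, chrX:2703841-2703941 on the plus strand, is shown as the strongest site of the experiment. It holds none of the 7 motifs searched.
eIF2Bbeta: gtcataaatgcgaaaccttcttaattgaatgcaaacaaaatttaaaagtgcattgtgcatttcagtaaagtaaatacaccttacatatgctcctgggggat

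eIF2Bdelta, another regulatory subunit, was bound in 1 replicate. Its peak scored 112 and ranked 3980, with 82.6 in replicate 1. In replicate 2 it was outside the thresholded list, with a ranked score of 34.9 and a scaled IDR of 575. The summit lay 729 bp upstream of eIF2Bdelta, in the 3′ UTR of roh, with the start of CG30414 at 324 bp. eIF2Bdelta (FBgn0034858) spans chr2R:23386521-23389052 on the plus strand. The remaining eIF2B subunits, eIF2Balpha, eIF2Bgamma and the catalytic eIF2Bepsilon, had ranked scores of 43.4, 13.4 and 44.8, all below the threshold.

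eIF2A (FBgn0037135), at chr3L:21824740-21827856 on the plus strand, was absent from the conservative list but present in replicate 1. That replicate 1 peak scored 64.4 with a summit 31 bp upstream of the start, and the second series list held a peak of score 109 at 56 bp upstream. In the ranked list of the replicate pair the highest peak at eIF2A was elsewhere, 872 bp downstream of the nearest start. It scored 32.2 with a scaled IDR of 82. Replicate 2 had no ranked peak.

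eIF2D, which can deliver initiator tRNA without eIF2 and takes part in ribosome recycling, was the single bound gene with no other coding start within 1000 bp of its summit. Its peak scored 126 and ranked 3503, with 72.5 in replicate 1 and 53.3 in replicate 2. The summit at position 29151908 on chr3R lay 114 bp upstream. eIF2D (FBgn0041588) spans chr3R:29149896-29151794 on the minus strand. The stretch reaching 50 bases either side of the summit, chr3R:29151858-29151958 on the minus strand, is shown because no neighbour competes for this site, and it holds none of the 7 motifs.
eIF2D: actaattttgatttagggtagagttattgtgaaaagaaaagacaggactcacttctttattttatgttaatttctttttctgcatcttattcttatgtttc

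eIF3 is the large scaffold that holds the small subunit, mRNA and other factors together. Among its 4 bound genes, eIF3c, a core subunit, had the highest peak, which scored 435 and ranked 630. Replicate 1 gave 268 and replicate 2 gave 160. The summit lay 27 bp upstream of eIF3c, and the receptor gene CCHa1-R started 583 bp away. eIF3c (FBgn0034258) spans chr2R:17665678-17669275 on the plus strand, with its peak at chr2R:17665531-17665779. eIF3m had its conservative summit at its start, with a score of 174, and CG8323 began 226 bp away. Replicate 1 gave 109 with a summit 10 bp upstream of the nearest start. Replicate 2 gave 69.8 with a summit 53 bp downstream. These values place eIF3c and eIF3m among the summits closest to a start.

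eIF3h was the single bound gene whose summit lay downstream of the nearest start. The summit at position 5052475 on chr2L was in an intron, 305 bp downstream of the nearer, internal one of its 2 starts. The peak scored 296 and ranked 1181, with 155 in replicate 1 and 136 in replicate 2. The start of senju, transcribed the other way, lay 368 bp from the summit. eIF3h (FBgn0022023) spans chr2L:5051193-5053094 on the minus strand, and its peak spans chr2L:5052358-5052574.

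eIF3a, the largest core subunit, had the weakest bound peak of the 11. It scored 80.7 and ranked 5419, with its summit 4 bp upstream of eIF3a and 66 bp from the divergent start of CG1074. Neither replicate list held it, with ranked scores of 35.9 in replicate 1 and 43.5 in replicate 2. The window with both starts, chr3R:4433819-4433979 on the minus strand, carries TATCGATA and TATAAA (capitals, the second read on the opposite strand as TTTATA). It is shown beside eIF1A because both stretches hold these letters and neither peak passed in a single replicate. Each marked TATAAA lies downstream of a start, that of Vps39 in the eIF1A stretch and that of eIF3a in this one. In the promoter windows searched below, eIF1A had no TATAAA, while 45.8% of other coding genes had it. A shared promoter structure was not tested.
eIF3a: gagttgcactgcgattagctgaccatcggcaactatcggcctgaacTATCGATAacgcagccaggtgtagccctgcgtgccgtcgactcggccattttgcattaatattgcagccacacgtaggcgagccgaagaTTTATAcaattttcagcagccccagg

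The other 12 eIF3 genes were unbound in the conservative list. eIF3d1, whose human counterpart binds the cap of some mRNAs, scored 70.5 in the ranked pair list at 39 bp upstream, and the second series list held that peak. Its paralogue eIF3d2 had no ranked pair peak. eIF3b, eIF3e, eIF3g2, eIF3i, eIF3j and eIF3k had ranked pair peaks with scores from 27.9 to 46.9. eIF3f1, eIF3f2, eIF3g1 and eIF3l had none.

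None of the mRNA-binding eIF4 genes passed into the conservative list. eIF4G2, a paralogue of the scaffold eIF4G1, scored 73.0 in the ranked pair list at 59 bp upstream with a scaled IDR of 752, and was in the second series list. eIF4G1 had no ranked peak in any list. eIF4E1, the main cap-binding protein, scored 70.7 at 57 bp upstream with a scaled IDR of 80. eIF4E3, eIF4E4, eIF4E6 and eIF4E7 scored between 26.1 and 41.6. eIF4B, eIF4E5, eIF4H1 and eIF4H2, of which eIF4B and eIF4H are helicase cofactors, had no ranked pair peak.

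eIF4A, the leader-unwinding RNA helicase, and eIF4EHP, a cap-binding repressor of translation in the early embryo, had ranked pair peaks at the scaled IDR cap of 1000 that none of the thresholded lists held. At eIF4EHP the peak scored 1597 and ranked 39 among the ranked pair peaks, with a summit 236 bp upstream and 140 bp from the start of CG18428. Replicate 1 gave 896 and replicate 2 gave 716, each also at a scaled IDR of 1000. At eIF4A the score was 102, with a summit at position 5982464 on chr2L, in the 5′ UTR, and replicate scores of 40.1 and 57.7. Unlike at eIF4EHP, the replicate peaks were below the cap, with a scaled IDR of 414 in replicate 1 and 956 in replicate 2. The series had 154 such peaks at or above 830 that the conservative list lacks, and no source used here describes the step that removed them. With them, 13 of the 44 genes would be bound (29.5%), against 27.2% of other coding genes. The windows around these summits are chr3R:24109146-24109246 on the minus strand for eIF4EHP and chr2L:5982414-5982514 on the plus strand for eIF4A. They are shown so that the sites outside the lists can be inspected. Capitals mark TATAAA, on either strand, in the first and GAGAG, read as CTCTC, in the second.
eIF4EHP: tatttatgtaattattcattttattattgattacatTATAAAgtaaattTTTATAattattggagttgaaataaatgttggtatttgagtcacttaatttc
eIF4A: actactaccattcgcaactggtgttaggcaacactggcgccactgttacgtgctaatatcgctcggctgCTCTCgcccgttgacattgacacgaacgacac

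eIF5B, the GTPase of subunit joining, had a promoter peak with a score of 349 and rank 919. Replicate 1 gave 189 and replicate 2 gave 157. The summit at position 3460748 on chr3L lay 145 bp upstream of the nearest of its 2 starts and inside the 5′ UTR that begins at the other one. CG46463 and armi, which encodes an RNA helicase of the piRNA pathway, started 567 and 569 bp away. eIF5B (FBgn0026259) spans chr3L:3428658-3460977 on the minus strand. The stretch reaching 50 bases either side of the summit, chr3L:3460698-3460798 on the minus strand, is shown for comparison with its many intronic sites, and it holds none of the 7 motifs.
eIF5B: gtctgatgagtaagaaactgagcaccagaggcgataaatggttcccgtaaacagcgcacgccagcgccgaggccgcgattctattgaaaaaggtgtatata

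Across its 32.3 kb, eIF5B held 11 conservative summits, 10 of them intronic. Beside the promoter peak, 4 intronic summits lay in both replicate lists, with scores of 318 at 27755 bp from the start, 206 at 23206 bp, 199 at 5499 bp and 156 at 21945 bp. The weakest scored 6.76. Of 348 other coding genes between 25 and 40 kb long, a range chosen after the values were seen, the median held 1 summit and 2 (0.575%) held 11 or more. eIF4EHP, at 45.9 kb, held 3 intronic summits, of which the highest scored 299 at 9784 bp and lay in both replicate lists. eIF5, the GTPase-activating partner of eIF2, had no ranked peak.

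**Figure D2:**
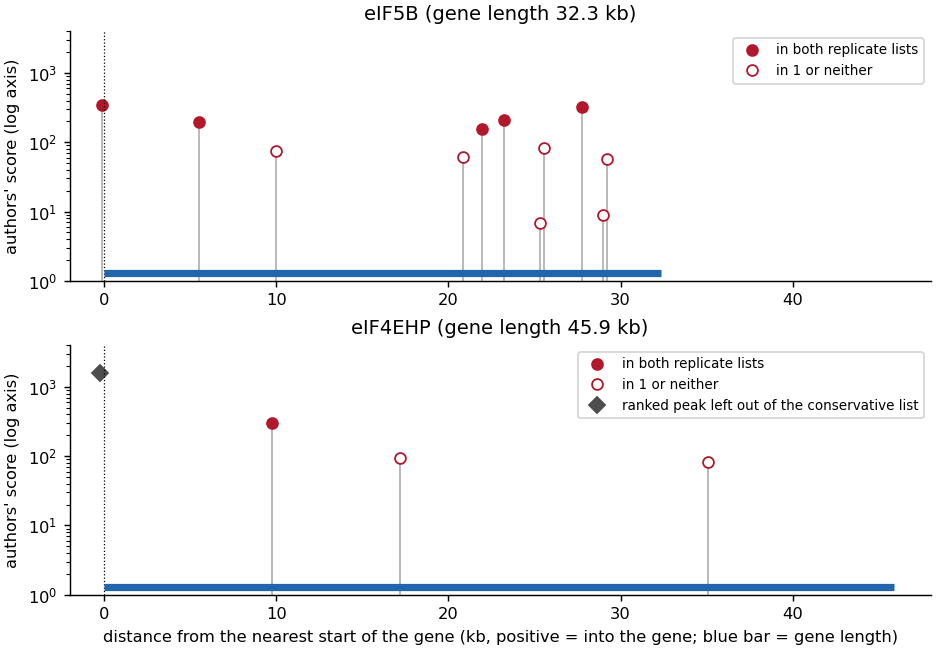
Conservative summits along eIF5B and eIF4EHP. The x axis gives distance from the start along the gene and the y axis the authors' score on a log axis; filled points lie in both replicate lists, and the diamond is the ranked peak of eIF4EHP outside the lists. eIF5B shows 11 summits, the strongest at its promoter, and eIF4EHP shows 3 in its introns.

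eIF6, which holds the large subunit apart, had the second highest peak of the group. It scored 2273 and ranked 12, with 1347 in replicate 1 and 944 in replicate 2. The summit at position 23850402 on chr2R lay just upstream of the start of eIF6 at 23850301, in an exon of the antisense RNA gene asRNA:CR45928, and ytr on the same strand started 671 bp away. eIF6 (FBgn0034915) spans chr2R:23849246-23850301 on the minus strand, with its peak at chr2R:23850226-23850581. eIF6 and eIF2Bbeta stood far above the other 9 bound genes, whose scores ran from 80.7 to 435.

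**Figure D3:**
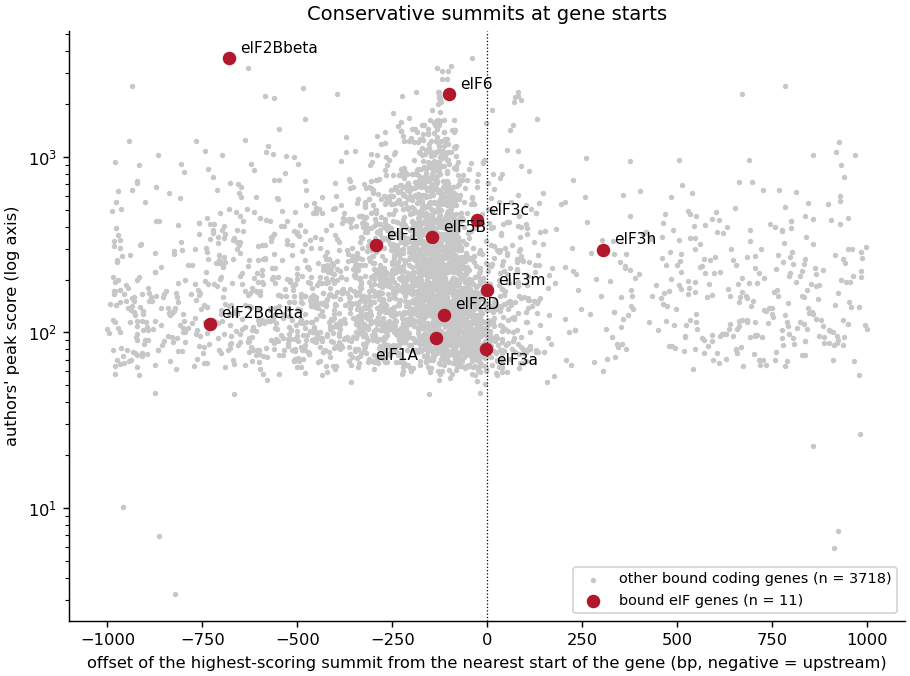
Score of the highest peak at each bound gene (y axis, log scale) against the offset of its summit from the nearest start (x axis, bp), for the 11 bound initiation factor genes, named, over the other bound coding genes in grey. eIF2Bbeta at 3662 and eIF6 at 2273 lie above the remaining 9.

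The 11 bound genes had a median score of 296, against 180 for other bound coding genes, and 6 of them (54.5%, interval 23.4 to 83.3) were above the median of all bound coding genes. With a 250 bp window that share was 37.5% (3 of 8), against 50%, so its direction relative to other genes turned. Their median distance from summit to start was 134 bp, against 181 bp, and with a 2000 bp window it was 294 bp, against 295 bp. Summits lay upstream of the start in 9 of 11 (81.8%), against 84.6%, and within 150 bp in 7 of 11 (63.6%), against 41.2%, while the shares within 250 bp were 63.6% and 61.4%. The 8 genes in both replicate lists kept nearly the same order of score in each, with eIF2Bbeta, eIF6, eIF3c and eIF5B first and eIF3m and eIF2D last. Their order differed in eIF1 and eIF3h, which swapped places. Because these 8 genes had passed the IDR filter, which keeps peaks of repeated rank, part of this agreement was fixed by selection. Summits of replicate 1 lay a median of 1 bp from the conservative summit (range 0 to 30, 9 genes) and those of replicate 2 a median of 15 bp (range 0 to 72, 8 genes). As the conservative list was built from both replicates, its summits are not independent of theirs.

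**Figure D4:**
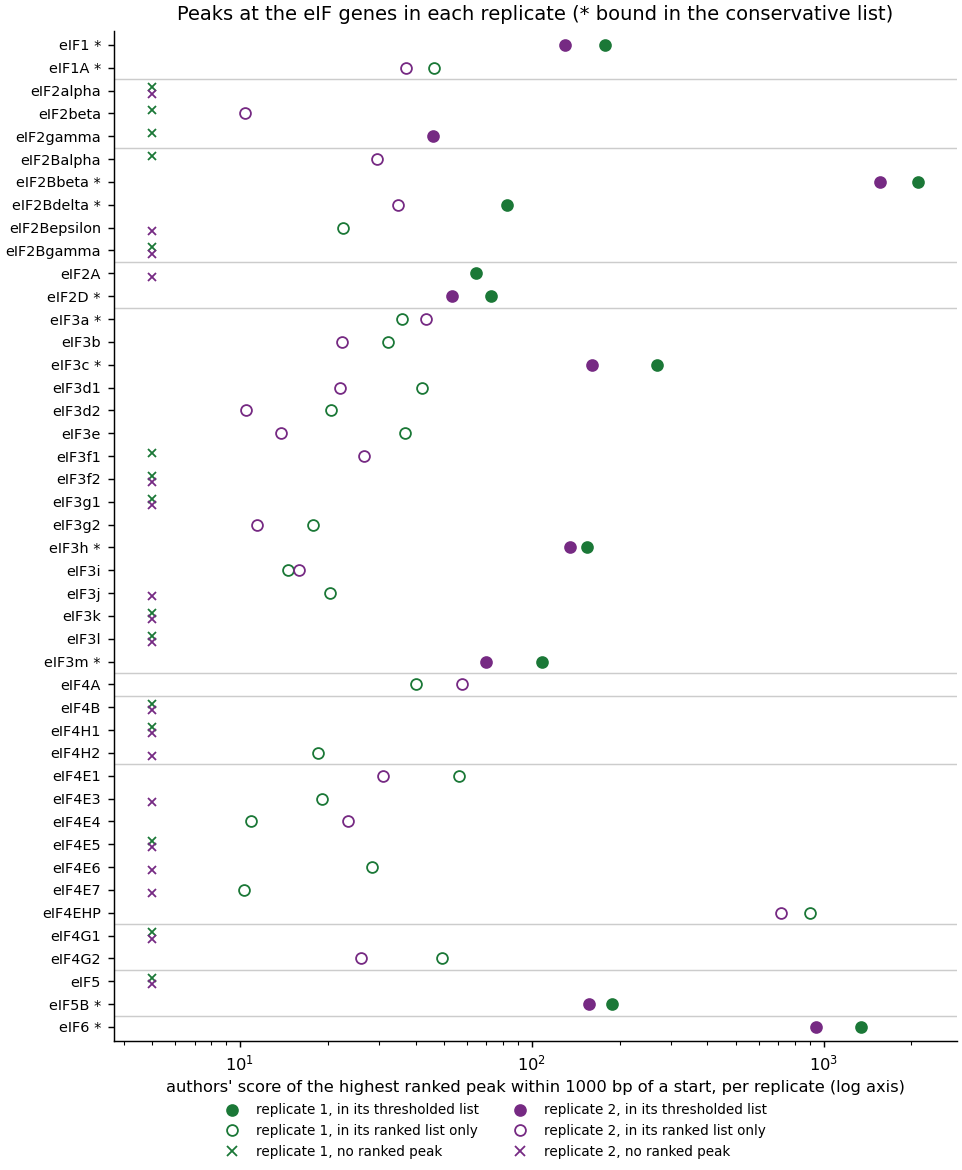
Score of the highest ranked peak within 1000 bp of a start in each replicate (x axis, log scale) for all 44 genes (y axis), grouped by complex. Filled points are in the thresholded list of that replicate, open points in its ranked list alone, and crosses at the left mark no ranked peak; eIF4EHP has 2 open points, at 896 and 716.

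Neighbouring starts were common at the bound genes. Only eIF2D (9.09%, interval 0.230 to 41.3) had a summit with no other coding start within 1000 bp, against 39.7% of other bound coding genes. In the list of replicate 1 alone the share was 20% (2 of 10), against 38.3%. In that of replicate 2 alone the share was 11.1% (1 of 9), against 38.6%. It was 25% (3 of 12) in the second thresholded list, against 40.2%, and 26.7% (4 of 15) with a 2000 bp window, against 49.2%. A start on the opposite strand lay within that distance in 9 of 11 (81.8%), against 56.6%, and in 7 of 11 (63.6%) the summit was upstream of both starts, against 46.4%. Over all 44 genes, 23 (52.3%) had another coding start within 1000 bp of their own, against 42.8% of other coding genes. Of those 23, 10 were bound (43.5%), against 40.4% of other coding genes of that kind, and of the remaining 21, 1 was bound (4.76%), against 16.4%. A peak in such a shared promoter cannot be assigned to either gene from these lists.

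**Figure D5:**
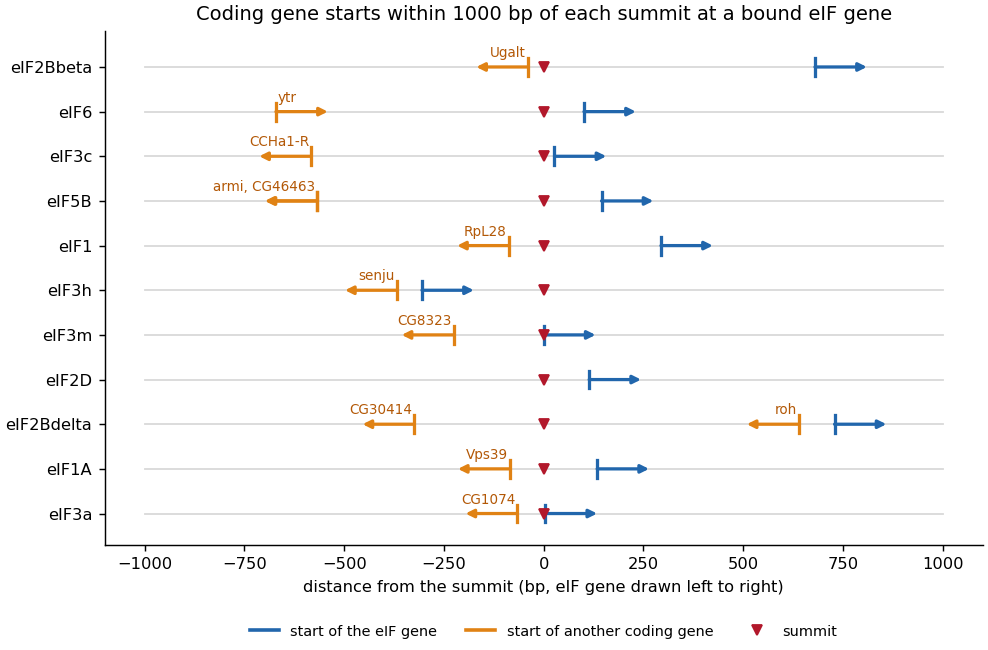
Coding gene starts by distance from the summit (x axis, bp, with the summit at 0 and the initiation factor gene reading left to right) at each of the 11 bound genes (y axis). Arrows give the direction of transcription; 10 of the 11 genes have another coding start within 1000 bp of the summit, the exception being eIF2D.

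The ranked lists, which carry no threshold, held peaks at most coding genes. A ranked peak of the replicate pair lay at 31 of the 44 genes (70.5%), against 76.8% of other coding genes, and at 20 of the 33 unbound ones (60.6%, interval 42.1 to 77.1), against 68.3%. Those 20 include eIF4EHP and eIF4A, whose peaks scored above some bound genes. Replicate 1 had ranked peaks at 29 genes (65.9%), against 69.0%, and replicate 2 at 26 (59.1%), against 65.7%. Genes with no ranked peak in any list numbered 9, and they were eIF2alpha, eIF3f2, eIF3g1, eIF3l, eIF4B, eIF4E5, eIF4G1, eIF4H1 and eIF5. Just inside the distance limit were eIF2Bdelta at 729 bp and eIF2Bbeta at 680 bp, and just outside it eIF4G2 at 1279 bp and eIF2Bgamma at 1297 bp.

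Motifs were searched on both strands in the window from 50 bases before to 50 after each summit, and none of the 7 contains another. TATCGATA occurred at eIF1 and eIF3a, 2 of the 11, and in 1.42% of all conservative summit windows and 2.59% of those near a coding start. GGTCACAC, known as motif 1 of fly core promoters, occurred at eIF2Bdelta, against 0.733% of all windows. GAGAG occurred at eIF3c, against 8.76%, and TATAAA at eIF6 and eIF3m, against 23.6%. In windows near a coding start the rates were 1.26% for GGTCACAC, 8.17% for GAGAG and 22.4% for TATAAA. The homeodomain motifs TAATCC and TAAGCC were in none of the 11 windows, against 3.81% and 4.37% of all windows. CAGCTG was also in none, against 2.89%. Near a coding start TAATCC stood at 4.44%, TAAGCC at 4.41% and CAGCTG at 3.94%. At rates this low, absence from 11 windows does not show that these motifs are rarer there. A match is a description of letters in these windows alone.

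In the 300 bases from 250 before to 50 after a start, TATCGATA was found at 12 of the 44 genes (27.3%), against 9.30% of other coding genes. The windows did not cover every annotated start. Unbound eIF2A, with 2 starts, had TATCGATA centred 85.5 bp upstream of a start and is not among the 12. In these windows TATCGATA was at 5 of the 11 bound genes, eIF1A, eIF2Bbeta, eIF3a, eIF3c and eIF6, and at 7 of the 33 unbound ones (21.2%). Among other bound coding genes the share was 13.4%. Centred within 100 bp of a start, the element stood at 11 of the 44 genes, 3 of them bound. Within 20 bp it stood at 6, of which 1 was bound. From the summit it lay 711.5 bp away at eIF2Bbeta and 189.5 bp at eIF3c, while 4 bound genes had it within 100 bp. Whether the element goes with binding was not tested. In the 300-base windows GGTCACAC was found at 6 genes (13.6%), all unbound, namely eIF2Bepsilon, eIF2alpha, eIF2beta, eIF3i, eIF3k and eIF3l, against 7.67%. Some motifs had lower shares than at other coding genes, on few genes. GAGAG was at 7 genes (15.9% against 29.7%), CAGCTG at 4 (9.09% against 17.7%) and TAATCC at 2 (4.55% against 8.75%). With counts this small and no test, these shares do not show that the motifs are rarer. TATAAA (45.5% against 45.8%) and TAAGCC (11.4% against 11.2%) were level. Among the 11 bound genes, TAATCC and TAAGCC were each found at eIF2Bbeta alone, whose summit lay outside that stretch. The pyrimidine-rich initiator TCTTT of ribosomal protein genes lay exactly at the start of 0 of the 44 genes, against 0.223% of other coding genes. Within 5 bp of a start it was found at eIF3m, eIF3i and eIF4A (6.82%), against 2.21%.

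Other translation genes were counted in the same list. The list of 28 symbols matched 26 genes, for cap and poly(A) regulators, eIF2alpha kinases, reinitiation and recycling factors, elongation factors and release factors. Of the 26, 13 (50%, interval 29.9 to 70.1) had a conservative summit within 1000 bp of a start. Among coding genes outside the initiation factors the share was 26.7%. In both replicate lists 9 did (34.6%, interval 17.2 to 55.7), against 19.5%, which lies inside that interval. The symbols were chosen with earlier results of these data known. eEF1gamma, a subunit of the elongation factor that delivers tRNA, scored 416 at 31 bp upstream. pAbp, which binds the poly(A) tail, scored 383 at 489 bp downstream, and the release factor eRF3 scored 338 at 88 bp upstream. The interval of the 50% share overlaps that of the initiation factors, and the difference was not tested.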

How the data were processed

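Ptx1 ChIP-seq of 2 biological replicates of whole embryos was analysed from peak lists that the authors deposited on dm6, per the labels; the 2 samples form 1 group, with replicate numbers from the labels. Chromatin had been sheared to 200 to 800 bp fragments, per the labels. The strength score of each deposited peak carries no stated unit, and a scaled IDR score capped at 1000 stands beside it. The authors deposited a −log10 q value for each peak, which broke ties in score here. The authors' conservative list holds a scaled score of at least 830, read from the values. Aligner and peak caller names, with versions, were not given in the sources used here. Samples of 1 group allow no contrast, so nothing was tested and shares are set beside other coding genes.

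Summits (start plus the summit column) were placed against Ensembl release 115 starts of coding genes on the arms of chromosomes 2, 3, 4, X and Y. Other scaffolds were left out. The members, complexes, pathway list and motifs were chosen with earlier results of these data known. All 44 genes are named by complex, and full values go to bound genes above the median score, to those in 1 replicate list alone or outside the conservative list, and to paralogue pairs with 1 bound gene. Intervals are exact Clopper-Pearson at 95% and cover counting of genes alone, since read depth is unknown. The planned promoter table was not used here, so starts came from the Ensembl annotation and sequences from the RefSeq genome of the same assembly. The functions were tested on simulated data. Alternatives changed the peak list, the window, the score range, the gene assignment and each replicate alone. Python 3.11.15, numpy 2.4.6, pandas 2.3.3, scipy 1.17.1 and matplotlib 3.10.9 were used.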

Additional observations from a re-analysis of the deposited data

Results flagged for a closer look

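Among ranked pair peaks that the thresholded lists omit, the one at eIF4EHP scored 1597 and the one at eIF4A scored 102. Both had a scaled IDR of 1000 in the ranked pair list. They are listed because they lie outside the lists the comparisons use. The omission concerns 154 peaks of the whole series, and its cause was not tested.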

How the results depend on the processing

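The share of the 44 genes bound, 25%, ranged from 15.9% to 34.1% over 12 alternatives and moved by less than its own interval in each. It was 18.2% with a 250 bp window, 20.5% with 500 bp, 34.1% with 2000 bp, and 18.2% when a summit counted for its nearest gene alone. Keeping only peaks above the median score of the list gave 15.9% (7 genes). In that setting the share above the median score was 85.7% and the share with no other coding start was 0%. The share above the median score fell to 37.5% with a 250 bp window, against 50% of other genes. With a 2000 bp window the median distance was 294 bp and the share with no other start 26.7%, and the second thresholded list put that share at 25%. Without replicate 1 the bound share was 20.5% and without replicate 2 it was 22.7%. Leaving out either replicate put the share above the median score at 60 to 66.7%, the upstream share at 77.8 to 90%, the median distance at 125 to 148 bp and the share without another start at 11.1 to 20%. The share in both replicate lists ranged from 11.4% to 25%. Adding the omitted peaks (29.5%) and leaving out chromosome 4 (25.6%) were chosen after seeing the data. With 11 bound genes and no read depth, small differences from other genes are not detectable. No paired analysis was possible because the 2 samples form 1 group and there is no contrast.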

Other observations

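Several conservative summits in initiation factor genes or within 1000 bp of their ends lay at the starts of neighbours, beyond 1000 bp of the factor's own start. Past the 3′ end of eIF2beta, in an intron of ver, the summit scored 608 and lay 191 bp from the start of ver and 222 bp from that of Gcn5, which encodes a histone acetyltransferase. Past the end of eIF3g1 the summit scored 381 and lay 91 bp from Smyd3, and past the end of eIF2A it scored 242 and lay 136 bp from CG32448. All 3 were in both replicate lists. Weaker ones stood past the end of eIF3j, with a score of 74.9 near CG12134, and inside eIF1A, with a score of 56.6 near CG7142.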
